A study of Mus musculus with 128 samples.

Results

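The genes described here are 9 genes of the muscle acetylcholine receptor and of the response of muscle to loss of its nerve, taken by name from a table of 55285 genes. They are the receptor subunit genes Chrna1, Chrnb1, Chrnd, Chrng and Chrne, the receptor kinase gene Musk, the transcription factor genes Myog and Runx1, and the adhesion molecule gene Ncam1. All 9 were found in the table of gastrocnemius, a fast calf muscle, and in that of heart, which serves as a contrast. The study measured RNA by sequencing in 8 tissues, with 4 libraries at each of 4 ages, 128 in all. The groups used are gastrocnemius and heart at 6, 15, 24 and 30 months of age, 16 libraries of each tissue. All mice were male, untreated and wild-type, of the strain C57BL/6J. The labels do not say that the 4 libraries of a group came from separate mice, so p-values measure the spread between these libraries.

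The muscle acetylcholine receptor is a channel of α, β, δ and either γ or ε subunits, which opens when the motor nerve releases acetylcholine. The γ subunit belongs to the fetal receptor, and the ε subunit takes its place after birth in nuclei under the neuromuscular junction. When the nerve is cut or silent, nuclei along the whole fibre transcribe the α, β, γ and δ subunit genes again, together with Musk, Myog, Runx1 and Ncam1, and these genes are therefore used as marks of denervation. Chrne depends less on electrical silence and more on signals from the nerve terminal at the junction.

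Promoter sequences were taken from RefSeq (GRCm38.p6), in which 7 of the 9 genes matched an entry and Chrnd and Ncam1 did not. The 4 shown are those of the α subunit gene, of the genes of the fetal γ and adult ε subunits, and of Musk. Each line holds the 250 bases before the start, 5′ to 3′ on the strand of the gene. They lie at chr2:73580339-73580588 on the minus strand (Chrna1), chr1:87205561-87205810 on the plus strand (Chrng), chr11:70619195-70619444 on the minus strand (Chrne) and chr4:58285712-58285961 on the plus strand (Musk). Capitals mark CAGCTG, a form of the E-box CANNTG bound by myogenin and related factors, and CCGGAA, the N-box core bound by ETS factors.
Chrna1: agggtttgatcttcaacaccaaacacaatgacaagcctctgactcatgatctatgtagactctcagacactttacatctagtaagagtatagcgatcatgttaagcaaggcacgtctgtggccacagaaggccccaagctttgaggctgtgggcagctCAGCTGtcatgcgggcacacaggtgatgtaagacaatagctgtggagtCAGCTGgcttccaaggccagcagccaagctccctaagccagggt
Chrng: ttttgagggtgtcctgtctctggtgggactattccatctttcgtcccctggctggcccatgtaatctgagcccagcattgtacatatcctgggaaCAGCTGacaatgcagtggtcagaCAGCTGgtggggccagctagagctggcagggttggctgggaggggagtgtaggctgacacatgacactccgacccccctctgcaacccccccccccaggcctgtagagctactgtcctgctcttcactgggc
Chrne: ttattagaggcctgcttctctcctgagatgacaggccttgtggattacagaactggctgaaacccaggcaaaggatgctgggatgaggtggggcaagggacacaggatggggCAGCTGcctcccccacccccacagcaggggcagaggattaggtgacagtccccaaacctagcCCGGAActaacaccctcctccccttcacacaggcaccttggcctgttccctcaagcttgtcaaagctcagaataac
Musk: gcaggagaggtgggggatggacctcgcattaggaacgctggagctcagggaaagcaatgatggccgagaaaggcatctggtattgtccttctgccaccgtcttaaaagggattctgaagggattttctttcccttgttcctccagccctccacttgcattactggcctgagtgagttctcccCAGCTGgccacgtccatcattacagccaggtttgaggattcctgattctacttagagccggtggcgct
CAGCTG, which is its own reverse complement, began 92 and 44 bases before the start of Chrna1, 155 and 132 before Chrng, 138 before Chrne and 68 before Musk. At least 1 match was present in 13% and at least 2 in 1.26% of the 32851 promoters in the table, over the same 250 bases. The motif was not in these windows of Myog, Chrnb1 or Runx1, while the looser CANNTG, which includes CAGCTG, was in a window of all 7 genes and in 66.2% of all promoters. CCGGAA, searched on both strands, began 76 bases before the start of Chrne and 106 bases before the second of the 2 Runx1 entries, and was in 12.0% of all promoters. A match is a description of letters, not of binding.

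Gastrocnemius libraries held 12263657 to 23775435 reads and heart libraries 7647585 to 20162510, which limits the genes of few reads most. Summed fast fibre markers (10 genes, among them Acta1 and Myh4) came to 129000 to 153000 CPM (reads per 1000000 reads of the library) in gastrocnemius at 6 and 30 months, against 1232 to 1490 in heart. Summed cardiomyocyte markers (9 genes, among them Myh6 and Nppa) came to 27340 to 31150 in heart and 15.96 to 34.3 in gastrocnemius at those ages. Each tissue thus held the markers of its label. Replicate 3 at 30 months in gastrocnemius and replicate 4 at 24 months in heart stood apart from their tissue, with median rank correlations of 0.968 and 0.903 where the next lowest were 0.982 and 0.981. Replicate 4 at 24 months in gastrocnemius had the highest mean level of the 9 genes of all 16 libraries, and results that rest on it are given with and without it. Values below are reads normalised by the authors within the tissue, and fold changes are on the scale of log2(value + 1).

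Between 6 and 30 months, 4 of the 9 genes rose in gastrocnemius: Chrna1, Chrnb1, Musk and Runx1. Over all 14561 genes tested, 6.15% rose past the same threshold, an adjusted p of 0.05. Not one of the 9 fell past it, where 6.92% of all genes fell. In 8 of the 9, all but Chrne, every 30-month library was above every 6-month library, and 8.93% of all genes showed that. The same 8 were separated on CPM. Because the spread is shared by all 4 ages, the single high library at 24 months widens it: without that library 7 of the 9 rose, with Chrnd, Chrng and Ncam1 added, and 12.2% of 14770 genes changed in either direction. Without it and replicate 3 at 30 months, 5 rose, with Chrnd added to the 4, and 10.8% of 14667 genes changed. With all libraries 13.1% of genes changed in either direction. The library at 24 months was picked out after seeing that these same genes were high in it. The added calls are therefore no separate support. In tissue RNA a change in the number of fibres or nuclei that express a gene and a change in RNA per nucleus cannot be told apart.

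**Figure D1:**
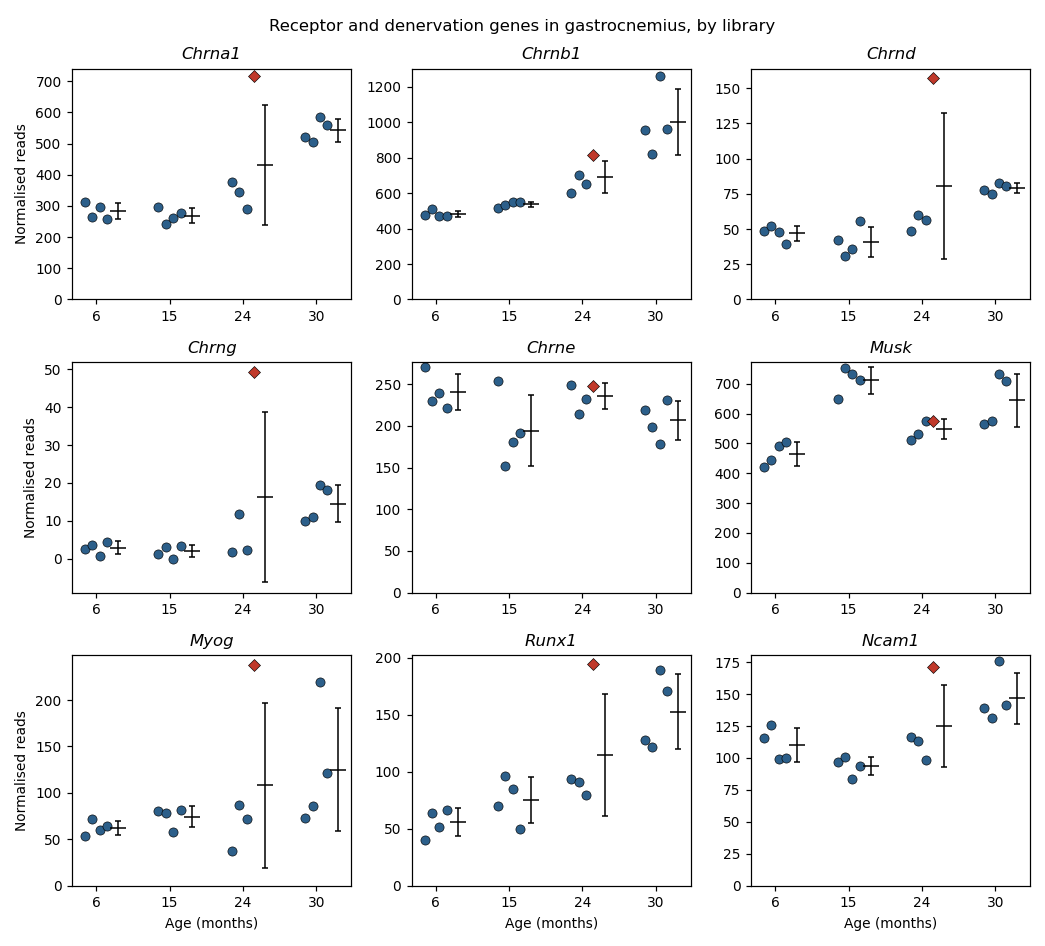
Normalised reads (y axis, from 0 except for Chrng, where an error bar passes below 0) of each gene in every gastrocnemius library by age in months (x axis); dots are libraries, the red diamond is replicate 4 at 24 months, and the bar beside each group is the mean ± SD (n = 4). In 8 of the 9 panels, all but Chrne, the 30-month dots lie above all 6-month dots.

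Among the receptor subunits present in both fetal and adult receptors, Chrna1, which encodes the α subunit that carries the acetylcholine binding site, had 313, 265, 297 and 259 normalised reads at 6 months and 297, 242, 261 and 276 at 15 months. At 24 months its values were 376, 345, 290.4 and 717, and at 30 months 521, 504, 585 and 559.5. The 2 younger ages overlapped, 1 library at 24 months lay within their range and 3 above it, and all of those at 30 months were above both. The rise from 6 to 30 months was 0.94 ± 0.19 (SE) on the log2 scale, a 1.91-fold change (adjusted p = 0.00477). From 6 to 24 months the log2 difference was 0.52 ± 0.19 (adjusted p = 0.194), and 0.25 ± 0.10 without replicate 4.

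Chrnb1, the β subunit gene, had 478, 509, 472 and 469 normalised reads at 6 months, 514, 533, 549 and 548 at 15 months, 601, 699.6, 649 and 816 at 24 months and 958, 821, 1263 and 963 at 30 months. On the authors' scale no library of any age overlapped with those of the next. On CPM the libraries at 15 months (lowest 26.8) overlapped with those at 6 months (highest 27.9), and the later ages stayed apart. Its log2 change against 6 months was 0.15 ± 0.11 at 15 months (adjusted p = 0.632), 0.51 ± 0.11 at 24 months (adjusted p = 0.024) and 1.04 ± 0.11 at 30 months, a 2.05-fold rise (adjusted p = 3.93e-05). The call at 24 months was lost without replicate 1, 3 or 4 at 6 months or replicate 2 or 4 at 24 months, with an adjusted p of 0.0834 without the last.

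Chrnd, the δ subunit gene, had 48.7, 51.9, 47.9 and 39.7 normalised reads at 6 months, 42.1, 31.0, 35.8 and 55.4 at 15 months, 48.2, 60.3, 56.1 and 157 at 24 months and 77.8, 74.7, 82.8 and 80.6 at 30 months. The 30-month libraries were close together and above all libraries of the younger ages but 1, the high one at 24 months. The log2 difference between 30 and 6 months was 0.74 ± 0.28 and did not pass the threshold (adjusted p = 0.0859). Without replicate 4 at 24 months it did, at the same 0.74 with an SE of 0.16 (adjusted p = 0.00915).

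Chrng, which encodes the fetal γ subunit, was near the limit of detection at the younger ages, with 3, 4, 1 and 5 reads at 6 months and 1, 2, 0 and 3 at 15 months. At 24 months it had 2, 12, 2 and 46 reads, and at 30 months 10, 12, 22 and 20. Every 30-month library was above every one at 6 and 15 months, and the highest of all 16 was again replicate 4 at 24 months. For the library with 0 reads, a count of up to 3 reads cannot be told from 0. In normalised reads the mean was 2.91 ± 1.62 (SD, n = 4) at 6 months and 14.6 ± 4.87 at 30 months. The log2 difference was 2.06 ± 0.76 (adjusted p = 0.0857), and past the threshold without replicate 4 at 24 months (0.60 as its SE, adjusted p = 0.0365). Without that library and replicate 3 at 30 months it was 1.91 ± 0.67 (adjusted p = 0.0844).

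Chrne, which encodes the adult ε subunit, had 271, 229.7, 239 and 222 normalised reads at 6 months, 254, 152, 180.4 and 191 at 15 months, 249, 214, 232 and 247 at 24 months and 218, 199, 178 and 231 at 30 months. The 4 ages overlapped. The log2 difference between 30 and 6 months was -0.22 ± 0.13 (adjusted p = 0.275), and between 15 and 6 months -0.33 ± 0.13 (adjusted p = 0.303). It was the only subunit gene of the 5 whose mean was not higher at 30 than at 6 months. Chrne overlaps a gene on the opposite strand in the annotation, and so do Runx1 and Ncam1. The library kit keeps the strand, but the strand setting of the counts was not given in the sources used here.

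Set against each other within a library, Chrng had 0.980, 1.61, 0.319 and 2.03 reads per 100 reads of Chrne at 6 months and 0.503, 1.94, 0 and 1.78 at 15 months. The values at 24 months were 0.692, 5.53, 0.966 and 19.9, and those at 30 months 4.50, 5.50, 10.9 and 7.84. All 30-month libraries were above all libraries at 6 and 15 months, while at 24 months 2 were among the young values and 2 were not. This ratio is not corrected for transcript length, so it serves to compare ages and not the amounts of the subunits, and no test was made on it.

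**Figure D2:**
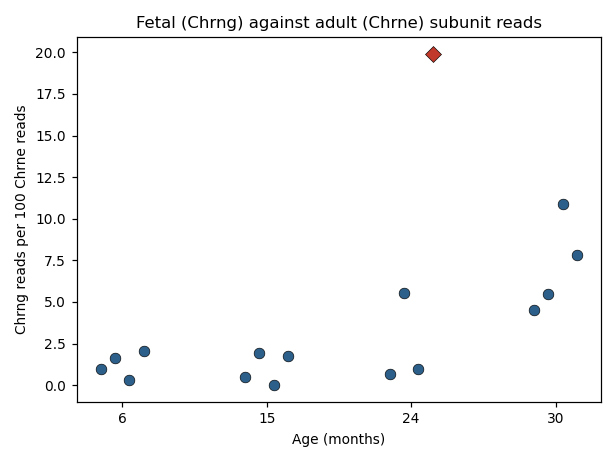
Chrng reads per 100 Chrne reads (y axis) in each gastrocnemius library by age in months (x axis); the red diamond is replicate 4 at 24 months. The 30-month libraries lie between 4.50 and 10.9, the 6-month libraries between 0.319 and 2.03.

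Musk encodes the muscle-specific kinase through which agrin from the nerve gathers receptors at the junction. It had 419.7, 444, 491 and 505 normalised reads at 6 months, 648, 752, 734 and 714 at 15 months, 511, 531, 576 and 576 at 24 months and 564, 574, 733 and 711 at 30 months. All libraries of the 3 older ages were above all of those at 6 months, except on CPM, where those at 24 months (lowest 27.9) overlapped with them (highest 28.6). The highest mean was at 15 months. Musk rose by 0.62 ± 0.09 on the log2 scale from 6 to 15 months (adjusted p = 0.0051) and was the only one of the 9 genes to do so, where 0.405% of all genes rose. It fell by 0.38 on the log2 scale from 15 to 24 months (SE 0.09, adjusted p = 0.0414), where 1.23% of all genes fell, a call lost without any 1 of 7 of the 8 libraries of those ages, all but replicate 1 at 15 months. Its level at 30 months was 0.47 ± 0.09 above that at 6 months (adjusted p = 0.00419), a 1.38-fold rise. In replicate 4 at 24 months, where other genes of the group were high, Musk had the same value as in replicate 3.

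Runx1, which encodes a factor that keeps denervated fibres from wasting and is also made by blood cells, had 39.8, 63.9, 51.7 and 66.7 normalised reads at 6 months, 70.2, 96.0, 85.0 and 49.8 at 15 months, 93.9, 90.9, 79.6 and 195 at 24 months and 128, 122, 189 and 171 at 30 months. Libraries at 6 and 15 months overlapped, and those at 24 and 30 months were all above those at 6 months. The rise from 6 to 30 months was 1.44 ± 0.26 on the log2 scale, or 2.72-fold (adjusted p = 0.00279). At 24 months the log2 difference from 6 months was 0.97 ± 0.26 (adjusted p = 0.0753), and 0.68 ± 0.23 without replicate 4. Leukocyte markers moved in the same direction: 5 of 9 tested rose from 6 to 30 months (3 without replicate 1, 3 or 4 at 6 months or replicate 2 or 4 at 30 months), and their sum over 11 genes went from 175 to 267 CPM at 6 months to 247 to 474 at 30 months. At 24 months replicate 4 had a leukocyte sum of 344, between those of its group, where Runx1 was 2.21 times the mean of the other 3 libraries. The part of leukocytes in the change of Runx1 was not tested.

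Myog encodes myogenin, the factor that binds E-boxes of receptor genes in denervated muscle. It had 54.0, 72.3, 60.1 and 64.0 normalised reads at 6 months, 80.4, 78.3, 58.1 and 81.5 at 15 months, 37.0, 87.0, 71.8 and 238 at 24 months and 72.8, 85.6, 219 and 121 at 30 months. All 30-month libraries were above those at 6 months, by a margin of less than 1 read for the lowest, and they differed widely among themselves. The log2 difference between 30 and 6 months was 0.86 ± 0.41 (adjusted p = 0.18), 0.54 ± 0.39 without replicate 3 at 30 months, and did not pass the threshold without the high library at 24 months either (adjusted p = 0.0705).

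Ncam1, which encodes the neural cell adhesion molecule found along denervated fibres and on Schwann and satellite cells, had 116, 126, 98.9 and 100.1 normalised reads at 6 months, 96.9, 100.46, 83.5 and 93.9 at 15 months, 116, 114, 98.7 and 171 at 24 months and 139, 131, 176 and 141 at 30 months. The younger ages overlapped and the 30-month libraries lay above both. The log2 difference between 30 and 6 months was 0.41 ± 0.15 (adjusted p = 0.0806), and it passed the threshold without replicate 4 at 24 months (adjusted p = 0.0343). Without that library and replicate 3 at 30 months it was 0.32 ± 0.11 (adjusted p = 0.0881). Summed Schwann cell markers (12 genes) were at 200.1 to 326 CPM at 6 months and 228 to 333 at 30 months. Of these, 11 were tested, 1 rose and 0 fell, where 6.15% of all genes rose. At an unadjusted p under 0.05 limma had 4 higher and 0 lower, and the median log2 change was 0.38. Satellite cell markers (8 genes) summed to 31.7 to 38.3 at 6 months and 32.9 to 50.4 at 30 months, with 1 of 7 tested lower, Chodl. The 50.4 was replicate 3 at 30 months alone, and the other libraries of that age had 32.9 to 34.1. Replicate 3 also had the highest Ncam1 value at 30 months, 176. The part of these cells in the level of Ncam1 was not tested.

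Replicate 4 at 24 months differed from the other 3 libraries of its age in some of the 9 genes and not in others. Against the mean of those 3, its value was 9.34 times as high for Chrng, 3.64 for Myog, 2.87 for Chrnd, 2.21 for Runx1, 2.13 for Chrna1, 1.56 for Ncam1 and 1.25 for Chrnb1, but 1.07 for both Chrne and Musk. For Chrna1, Chrnd, Chrng, Myog and Runx1 it also exceeded every 30-month library; Chrne did too, as it did in 2 of the other 24-month libraries. On the mean of the 9 standardised levels it came first at 1.54, ahead of replicates 3 and 4 at 30 months at 1.25 and 1.02, while the other 24-month libraries lay between -0.29 and 0.06. Its depth-scaled sums of fast fibre (140000 CPM), Schwann (247), satellite (29.3) and leukocyte markers (344) were within or close to the ranges of the other 24-month libraries, which were 140700 to 144400, 219 to 249, 30.05 to 30.9 and 312 to 442. Its fibroblast marker sum (5 genes) was lower, 945 CPM where the others had 1093 to 1197, and its adipocyte marker sum (4 genes) was higher, 293 where the others had 233.5 to 249. Their part in its values was not tested.

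**Figure D3:**
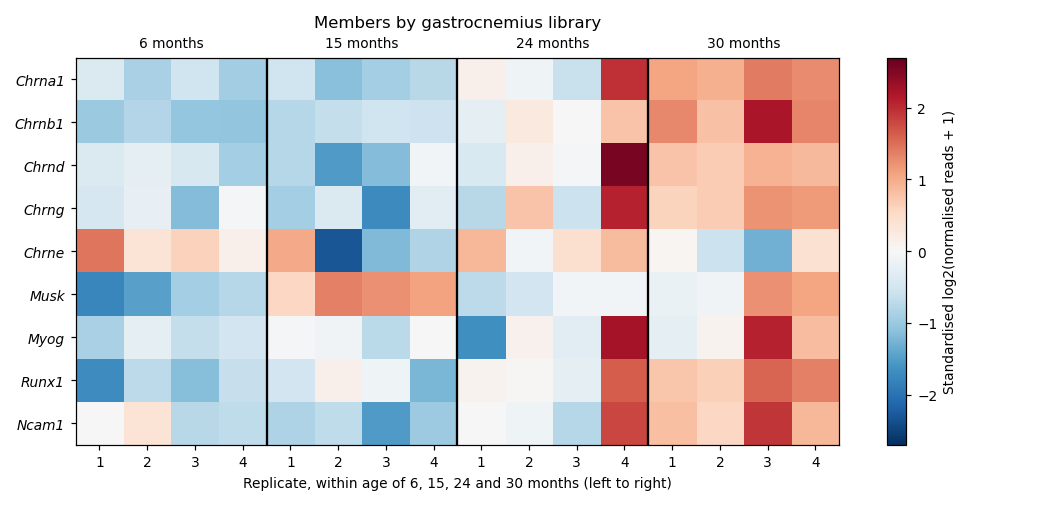
Standardised log2(normalised reads + 1) of each gene (rows) in the 16 gastrocnemius libraries (columns, by age and replicate); red is above and blue below the mean of the gene. Replicate 4 at 24 months is red in 8 of the 9 rows, all but Musk, and the Chrne row has no run of red at 30 months.

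Before 30 months few of the 9 genes passed the threshold against 6 months. Musk did at 15 months and Chrnb1 at 24 months, when 1.16% of all genes rose. All libraries at 15 months were above all at 6 months for 2 of the 9, Chrnb1 and Musk (4.57% of all genes), and all at 24 months for 3, with Runx1 added (7.04%). On CPM, Chrnb1 at 15 months and Musk at 24 months overlapped with 6 months. Between 24 and 30 months limma called 0 of the 9 genes and 0 of all genes (0%), with 3 of the 9, Chrna1, Chrnb1 and Musk, at an unadjusted p under 0.05, all higher, beside 870 higher and 1032 lower of all 14561 genes. edgeR also called 0 of the 9, and DESeq2 called 1, Chrnb1, where it called 1.33% of all genes. Without replicate 4 at 24 months, Chrna1 and Chrnb1 rose over that interval, by 0.69 and 0.61 on the log2 scale (adjusted p = 0.0205 and 0.0472). In that fit 0.0745% of 14770 genes changed in either direction. That library was picked out after seeing that these same genes were high in it, and leaving it out lowers their 24-month means. The added calls are therefore no separate support for a rise.

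**Figure D4:**
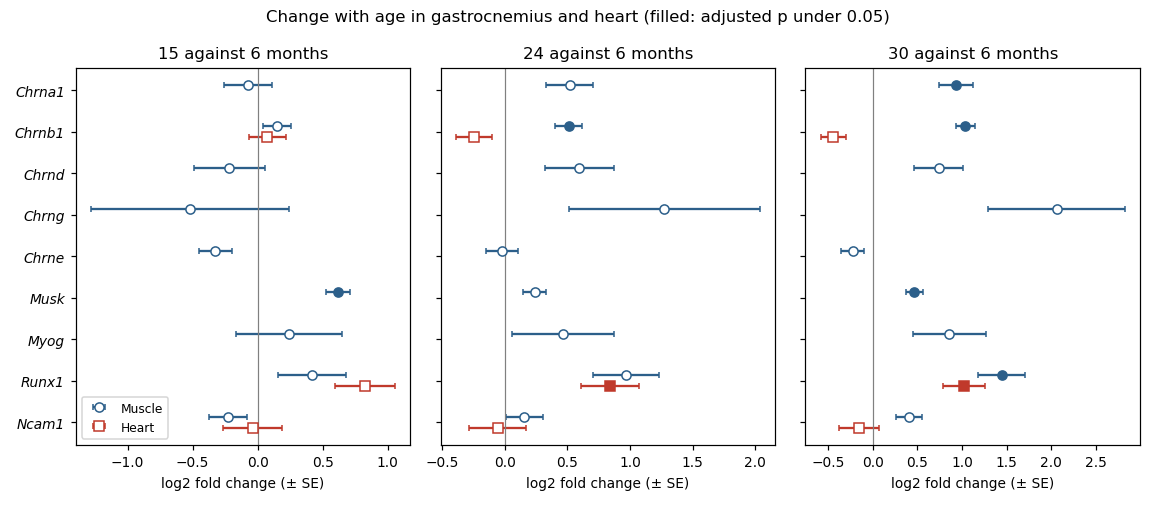
Log2 fold change ± SE (x axis) of each gene (rows) at 15, 24 and 30 against 6 months in gastrocnemius (blue circles) and heart (red squares), filled where the adjusted p is under 0.05; the x axes of the panels differ, and only the 3 genes tested in heart have squares. At 30 months 4 genes are filled in gastrocnemius and 1, Runx1, in heart.

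In heart, 6 of the 9 genes were too low to enter the test across genes. Chrng and Myog had 0 reads in all 16 libraries, Chrnd had a read in 1 library at 6 months and Chrne in 1 at 24 months. Chrna1 ranged from 0 to 6.23 and Musk from 0 to 6.84 normalised reads. For these 6 genes an exact two-sided permutation test of 4 against 4 libraries, which cannot go below 0.0286, gave p-values of 0.0857 or more for every older age against 6 months, and 1 for all 18 tests once adjusted. Chrng, Myog, Chrnd and Chrne had too few reads for any of their tests to pass. With that lowest p, Chrna1 and Musk could not have passed after adjustment either. These tests therefore cannot decide whether the 6 genes changed in heart. At 6 months gastrocnemius held 15.7 and heart 0.110 CPM of Chrna1, and 25.8 against 0.107 of Musk. The values were 13.3 against 0 for Chrne and 26.7 against 3.78 for Chrnb1.

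Of the 3 genes tested in heart, Runx1 had 17.3, 26.7, 23.1 and 26.04 normalised reads at 6 months, 35.2, 42.4, 41.5 and 47.6 at 15 months, 63.4, 48.4, 27.2 and 36.6 at 24 months and 54.3, 54.7, 47.6 and 36.4 at 30 months. The 3 older ages were above all 6-month libraries, as were 5.9%, 6.85% and 9.75% of all genes at 15, 24 and 30 months, and overlapped with each other. On CPM the libraries at 24 and 6 months overlapped, with a lowest value of 1.49 against a highest of 1.59. The rise was 0.84 ± 0.23 on the log2 scale at 24 months (adjusted p = 0.0496) and 1.02 ± 0.23 at 30 months (adjusted p = 0.0159), where 3.75% and 4.11% of 14301 genes rose. The call at 24 months was lost in 10 of 17 alternatives (adjusted p up to 0.249), among them leaving out any 1 of the 4 libraries at 6 months or replicate 1 or 2 at 24 months. That at 30 months was lost without replicate 1 at 6 months or replicate 1 or 2 at 30 months. Leukocyte markers were higher in heart as well: 8 of 10 tested rose by 30 months, and their sum went from 234 to 282 CPM at 6 months to 375 to 868 at 30 months. Their part in heart Runx1 was not tested either.

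Chrnb1 in heart had 67.1, 56.8, 63.3 and 75.0 normalised reads at 6 months and 61.1, 45.1, 42.2 and 45.1 at 30 months. The ranges overlapped through 1 library of each age. The log2 difference was -0.44 ± 0.14 (adjusted p = 0.0958). It passed the threshold as lower with limma-voom, and without replicate 4 at 24 months or replicate 1 at 30 months. Ncam1 in heart differed by -0.15 ± 0.23 between these ages (adjusted p = 0.86).

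The difference between the tissues was tested as the gastrocnemius change minus the heart change. For Chrnb1 it was 1.47 ± 0.17 on the log2 scale at 30 months (adjusted p = 1.1e-05), and 1.03% of 15406 genes had such a difference above 0. At 24 months it was 0.76 (adjusted p = 0.0393, with 0.136% of genes), a call lost in 16 of 22 alternatives, with an adjusted p of up to 0.131 and of 0.112 without replicate 4 at 24 months in gastrocnemius. The alternatives that lost it include leaving out any 1 of the 4 gastrocnemius libraries at 6 months, gastrocnemius replicate 2 or 3 at 24 months, heart replicate 1, 3 or 4 at 6 months or heart replicate 2, 3 or 4 at 24 months. At 30 months it held in all 24 alternatives. For Runx1 the difference at 30 months was 0.42 ± 0.36 (adjusted p = 0.684) and for Ncam1 0.56 ± 0.27 (adjusted p = 0.359), so a different change in the tissues was not shown for these. The other 6 did not pass the threshold either, and their heart values are at or near 0, where a fold change has little meaning.

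The surrounding genes of the pathway were taken as lists. Of 27 genes of the postsynaptic apparatus besides the 9, 25 were tested in gastrocnemius at 30 against 6 months. None rose and 3 fell, with a median log2 change of -0.08 beside 0.00 over all genes tested. Of all genes 6.15% rose and 6.92% fell. At an unadjusted p under 0.05 limma had 1 higher, edgeR called 0 higher, and DESeq2 and limma-voom each called 1. The 3 were Col13a1, a membrane collagen of the junction (-0.90 ± 0.25, adjusted p = 0.0251), Lama4, a laminin chain (-0.53 ± 0.14, adjusted p = 0.0174), and Scn4a, the muscle sodium channel (-0.27 ± 0.05, adjusted p = 0.00183). Without replicate 4 at 6 months, or fitted on these ages alone, 1 gene fell.

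The partners of MuSK and of the receptor cluster did not pass the threshold. Agrn, which encodes agrin, changed by 0.05 ± 0.10 on the log2 scale (adjusted p = 0.771), its receptor gene Lrp4 by 0.18 ± 0.15 (adjusted p = 0.47) and Dok7, the adaptor of MuSK, by 0.06 ± 0.16 (adjusted p = 0.846). For Rapsn, which encodes the scaffold that binds the receptor, the value was -0.11 ± 0.08 (adjusted p = 0.397). The acetylcholinesterase gene Ache had -0.39 ± 0.13 (adjusted p = 0.0597) and Colq, its collagen anchor, -0.35 ± 0.16 (adjusted p = 0.178). These 6 partners thus gave no call in either direction at the age at which Chrna1, Chrnb1 and Musk rose.

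Of 18 other genes known to rise on denervation, all were tested, and 11 rose from 6 to 30 months. None fell (0 also at an unadjusted p under 0.05, and in edgeR and DESeq2). The median log2 change was 0.89 beside 0.00 over all genes tested, of which 6.15% rose and 6.92% fell. The count of genes of the list that rose was 12 without replicate 4 at 24 months and 9 without replicate 3 at 30 months. Among the genes of the list that rose and had at least 50 reads on average, the 4 with the largest change were Sln, Myh3, Ankrd1 and Gadd45a. Sln encodes sarcolipin, an inhibitor of the calcium pump, and rose by 4.61 ± 0.64 on the log2 scale (adjusted p = 0.00041), from 8.85 to 47.2 normalised reads at 6 months to 489.9 to 1198 at 30 months. Myh3, the embryonic myosin heavy chain gene, rose by 2.61 ± 0.30 (adjusted p = 8.5e-05). The stress-responsive genes Ankrd1 and Gadd45a rose by 2.20 ± 0.36 (adjusted p = 0.00125) and 2.18 ± 0.32 (adjusted p = 0.000627). In heart 13 of these 18 were tested, 1 rose and the median was 0.07, where 4.11% of all genes rose. The change of this list was not tested between the tissues.

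The 4 genes known to fall on denervation gave 1 call, Smox, the spermine oxidase gene (-1.87 ± 0.31, adjusted p = 0.00126). For this and the next lists, 6.92% of all genes fell and 6.15% rose. Of 11 myogenic and related factors 2 rose, Myf6 by 0.62 ± 0.19 (adjusted p = 0.0415) and Mef2a by 0.23 ± 0.07 (adjusted p = 0.0341); Myf6 is also among the 18 denervation genes. Of 11 neuronal nicotinic receptor subunit genes 1, Chrna2, had enough reads to test in gastrocnemius and did not pass (0.22 ± 0.40, adjusted p = 0.772). Among 6 paralogs and partners of Runx1 and Ncam1, 4 were tested and limma called 0, with 1 higher and 1 lower at an unadjusted p under 0.05. Fast fibre markers gave 1 call each way, Myh1 at 0.47 ± 0.12 (adjusted p = 0.0219) and Pvalb at -0.72 ± 0.20 (adjusted p = 0.0235), and 0 of 6 slow fibre markers passed, with 3 higher at an unadjusted p under 0.05.

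**Figure D5:**
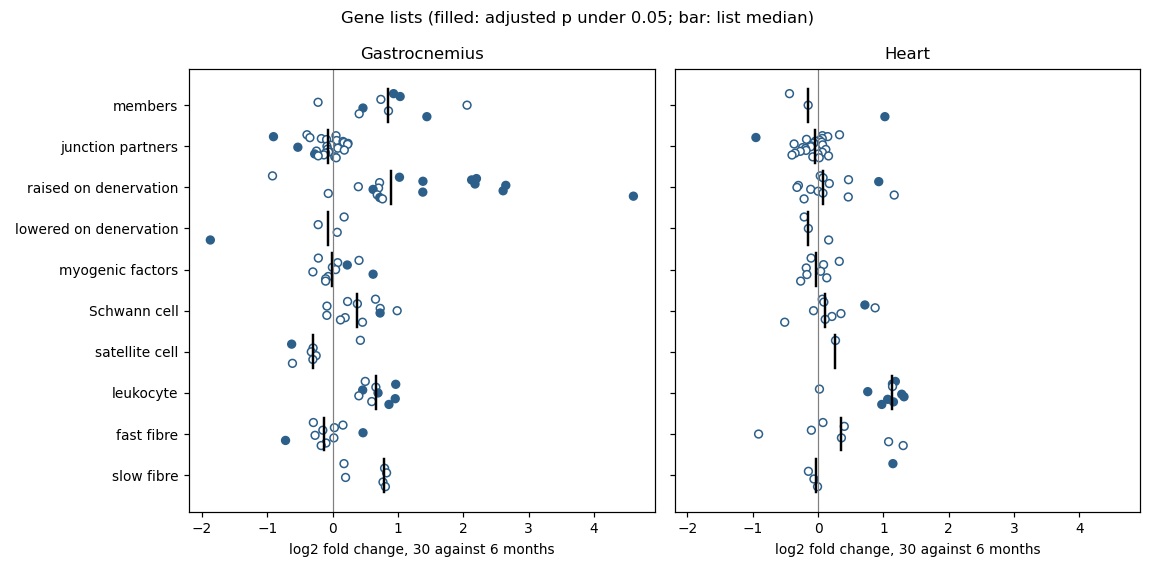
Log2 fold change at 30 against 6 months (x axis) of the tested genes of each list (rows) in gastrocnemius and heart; filled circles have an adjusted p under 0.05 and the vertical bar is the list median. The 18 genes known to rise on denervation have 11 filled circles to the right in gastrocnemius and 1 in heart.

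Likeness to the 9 genes was measured as Pearson's r between a gene and the mean of the 9 standardised levels over the 16 gastrocnemius libraries, among 10595 genes with at least 50 reads on average. The highest were Gadd45a (0.970), Aif1l (0.962), Rb1 (0.942), Pld3 (0.936) and Sln (0.935). Without replicate 4 at 24 months they were at 0.971, 0.944, 0.956, 0.927 and 0.934. Gadd45a had 164 to 205 normalised reads at 6 months, 271 to 416 in 3 libraries and 1173 in replicate 4 at 24 months, and 644 to 1294 at 30 months. Sln stood at 926 in that replicate and 74.1 to 85.0 in the other 3. These libraries share their ages and depths, and r is a description with no test.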

How the data were processed

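RNA of frozen tissue, extracted with RNAiso Plus, was sequenced as Illumina Stranded mRNA Prep libraries, per the labels' protocols. Per the submitters' processing notes, reads were handled with STAR, RSEM, FastQC and DESeq2 (no versions) on the mouse build GRCm39. Which annotation and strand setting were used was not given in the sources used here. For every tissue the authors deposited a signal per gene and library: reads divided by a single factor per library. All of these values in gastrocnemius and heart (100%) are whole reads within 0.01 reads once that factor is undone. Tissues were normalised separately, so tests were made within a table, and between tissues only changes were compared.

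Genes passing edgeR's filterByExpr (minimum count 10) were tested with limma-trend (limma 3.58.1, R 4.3.3) on log2(value + 1), with a pseudocount of 1, 1 mean per age over the 16 libraries of a tissue, and two-sided p-values with Benjamini-Hochberg adjustment over all genes tested. The tissue difference is the interaction of tissue and age over both tables. Heart members under the filter got exact permutation tests. Depth was 12263657 to 23775435 reads in gastrocnemius and 7647585 to 20162510 in heart. Values after ± are the SE of the limma fit, or the SD of the libraries of a group where marked. Both measure the spread between libraries. The detection limit of 3 reads covers counting error only. No 2 libraries of a group agreed within counting noise. The labels give no batch. edgeR 4.0.16 and DESeq2 1.42.0 on the recovered reads, other pseudocounts, scaling and filters, each library left out and a replicate block were run as alternatives, and the fits were tested on simulated data. Leaving out replicate 4 at 24 months where that age is not compared, and leaving it out with replicate 3 at 30 months, were added after seeing the data.

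The members, gene lists, markers and tests were chosen with earlier results of these data known. Named genes are the 9 members, Agrn, Lrp4, Dok7, Rapsn, Colq and Ache, up to 4 genes per list with the largest change past the threshold at 30 against 6 months in gastrocnemius and at least 50 reads on average, and the 5 most like the members; 1 gene that the rule gives is not reported here. Col13a1, below that read minimum, and Chrna2 were named after their values were seen. The cardiomyocyte, fibroblast and adipocyte marker lists gave 2 of 5, 0 of 5 and 0 of 4 tested genes higher, and 0, 2 and 0 lower, in gastrocnemius at 30 against 6 months. RefSeq promoters are of another build, GRCm38.p6, and were used for sequence only.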

Additional observations from a re-analysis of the deposited data

Results flagged for a closer look

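In 48 groups of 4 libraries, 6 held a library with a gap to its nearest neighbour too large a share of the range of the group (Dixon's criterion at the 95% level, which by chance marks about 1 group in 20). Among them, 2 were replicate 4 at 24 months in gastrocnemius, at 157 normalised reads of Chrnd, where the next was 60.3, and at 195 of Runx1, where the next was 93.9. Myog was low in replicate 3 at 15 months in gastrocnemius, at 58.1 where the other libraries were 78.3 or more. In heart Chrnb1 was low in replicate 2 at 15 months (60.7, next 70.8) and high in replicate 1 at 30 months (61.1, next 45.1), and Ncam1 was low in replicate 2 at 30 months (21.1, next 36.4).

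The change of Chrnb1 with age differed between gastrocnemius and heart in the test of the difference itself, by 1.47 on the log2 scale at 30 months, which held in all 24 alternatives, and by 0.76 at 24 months, which was lost in 16 of 22.

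Among the 6 tissues outside the comparison, members were above 3 reads in all 16 libraries as follows. Skin held 6 of the 9, Chrna1, Chrnb1, Musk, Myog, Runx1 and Ncam1. Aorta, kidney and lung each held the same 3, Chrnb1, Runx1 and Ncam1, and brain held 3, Musk, Runx1 and Ncam1. Liver held none at that mark.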

How the results depend on the processing

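In 1632 refits of single member values, 1561 kept their side of the threshold, 42 calls were lost and 29 gained, and no called value changed sign. Of the values short of the threshold, 35 changed sign, 0 of them among the 171 refits of gastrocnemius at 30 against 6 months. Leaving out 1 library at a time gave 4 to 7 members higher in that comparison, 0 to 2 at 24 against 6 months (1 with all libraries), 0 to 1 higher and 0 to 1 lower at 24 against 15 months (0 and 1 with all), and 0 to 2 at 30 against 24 months (0 with all). Junction genes that fell numbered 1 to 4 (3 with all) and denervation genes that rose 8 to 12 (11 with all). In heart the ranges were 0 to 1 higher at 24 and at 30 months (1 with all) and 0 to 1 lower at 30 months (0 with all), and for the tissue difference 0 to 1 at 24 months and 1 throughout at 30 months. Without both replicate 4 at 24 months and replicate 3 at 30 months in gastrocnemius, 1 member was higher at 24 against 15 months. At 30 against 24 months 2 were. In that fit 4.39% and 0.416% of genes changed in either direction in these comparisons.

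In gastrocnemius at 30 against 6 months DESeq2 called 5 members higher, with Chrng added, where 16.4% of all genes changed in either direction. At 24 against 6, 24 against 15 and 30 against 24 months it called 2, 2 and 1, where 3.47%, 4.07% and 1.33% changed. Limma-voom called 2, 1 and 0 there, where 8.91%, 4.13% and 0.0343% changed. The main fit had 1.77%, 2.4% and 0% of genes changed in these comparisons. With the 2 ages fitted alone, 6 members were higher at 30 against 6 months in gastrocnemius, with Chrnd and Chrng added. That fit called 6.07% of 14194 genes in either direction. Fitted so, 2 members were higher at 24 against 6 months (7.26% of genes), and 1 junction gene fell by 30 months. In heart 1 was higher at 15 and 0 at 24 months (4.66% and 0.726% of genes). Limma-voom called 1 member higher at 15 and 1 lower at 30 months in heart, where 5.21% and 15.2% of genes changed. Without the low-value filter, 0 were lower at 24 against 15 months in gastrocnemius, 0 higher at 24 months in heart and 0 in the tissue difference at 24 months; the last was also 0 with edgeR, and heart at 24 months 0 with a pseudocount of 5. Causes were not tested.

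The labels do not say that replicate numbers pair the libraries, and not every same-numbered pair correlated over 0.1: 12 of 24 across ages in gastrocnemius, 8 of 24 in heart, and 8 of 16 between gastrocnemius and heart of the same age (mean r 0.15, against -0.05 for other numbers). A library correlated best with its own number in 28 of 48 cases in gastrocnemius and 18 of 48 in heart, a hint from the data and not from the design. Without the block, the tissue difference treats all libraries as independent. With the replicate block, 5 members were higher in gastrocnemius at 30 months, where 13.4% of genes changed in either direction. With it 0 were higher in heart at 24 months and 0 in the tissue difference at 24 months. Scaling by TMM moved the median of all genes by at most 0.0034 on the log2 scale. Depth limits Chrng, with at most 5 reads per library at 6 and 15 months, and the 6 members near 0 in heart.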

Other observations

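Outside gastrocnemius and heart, levels in CPM (median of 16 libraries) were high for some of the 9 genes. Ncam1 was at 198 in brain (179 to 216) and 26.7 in aorta. Runx1 was at 62.2 in lung (48.4 to 72.2) and 19.7 in skin, against 3.08 as the mean in gastrocnemius at 6 months. Chrnb1 was at 21.1 in lung, in a range of 17.5 to 27.8 that includes its gastrocnemius mean of 26.7 at 6 months. In lung the other 4 subunit genes had medians of 0.084 or less. Chrng was 0 in every library of aorta, brain, kidney, liver and lung.

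Skin held Chrna1 at 1.75, Musk at 0.918 and Myog at 0.799 CPM, with the skeletal muscle actin gene Acta1 at 342 to 1885. The part of muscle in those skin values was not tested.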
